A study of Homo sapiens with 118 samples.

Results

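The alcohol dehydrogenases (ADH) and aldehyde dehydrogenases (ALDH) of human liver were followed through 40 groups of HepaRG cells exposed to histone deacetylase inhibitors. The genes were ADH1A, ADH1B, ADH1C, ADH4, ADH5, ADH6, ALDH1A1, ALDH1B1, ALDH2 and ALDH1L1. They were chosen by name alone, as every row of the count table whose symbol equals a gene of the set. A row holds the reads of 1 detector probe and is called a feature here, with the probe number printed after the gene symbol as deposited. Of the 10 genes, 9 had a row, and ADH1A had 2, which gave 10 features of 22068 in all. ADH5 was not analysed here.

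HepaRG is an established human liver cell line that can mature into cells resembling hepatocytes and bile duct cells. The samples' labels call the cells liver progenitor cells, while the growth protocol says that the cells were bought already differentiated, so the cultures may hold more than 1 cell type. Every group was exposed for 72 hours, with the chemical renewed each day, and lysates were read by TempO-Seq, in which pairs of probes are ligated on their target RNA and counted by sequencing. The 118 libraries came from 8 chemicals, each at 5 levels from C1, the lowest, up to C5, and replicates 1, 2 and 3 were 3 batches of HepaRG cells per the labels. Batch 3 is missing from C3 of panobinostat and from C4 of trichostatin A.

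Apicidin was given at 0.041722 (C1), 0.125167 (C2), 0.3755 (C3), 0.5 (C4) and 0.86 (C5) µM, mocetinostat at 0.177222 (C1), 0.531667 (C2), 1.595 (C3), 2.5 (C4) and 3.9 (C5) µM and panobinostat at 0.001468 (C1), 0.004403 (C2), 0.01321 (C3), 0.03963 (C4) and 0.084 (C5) µM. Trichostatin A was given at 0.018811 (C1), 0.056433 (C2), 0.1693 (C3), 0.5079 (C4) and 1.5237 (C5) µM, tacedinaline at 1.143333 (C1), 3.43 (C2), 10.29 (C3), 30.87 (C4) and 44 (C5) µM and vorinostat at 0.404778 (C1), 1.214333 (C2), 3.643 (C3), 10.929 (C4) and 23.5 (C5) µM. Scriptaid was given at 4.94 (C1), 14.82 (C2), 44.46 (C3), 60 (C4) and 94.5 (C5) µM. The dose labels of valproic acid were 100.478 (C1), 301.433 (C2), 904.3 (C3), 2712.9 (C4) and 3038 (C5), in a unit that the labels and the protocol leave unsettled. Trichostatin A, vorinostat, panobinostat and scriptaid are hydroxamates, mocetinostat and tacedinaline are benzamides, apicidin is a cyclic tetrapeptide and valproic acid is a branched short-chain fatty acid. Solvent controls were not used here, so C1 of the same chemical was the reference of every comparison, and any effect that C1 itself had is hidden. Scriptaid, tacedinaline and vorinostat lay on plate E and the other 5 chemicals on plate H.

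Alcohol dehydrogenases are zinc enzymes of the cytosol that oxidise alcohols to aldehydes with NAD+ as the electron acceptor, and aldehyde dehydrogenases carry the aldehyde on to the acid. In hepatocytes, ethanol is turned into acetaldehyde mainly by the class I enzymes (ADH1A, ADH1B and ADH1C), with ADH4 adding to the oxidation of ethanol and of retinol, and acetaldehyde is then cleared in mitochondria mainly by ALDH2. ALDH1A1 is cytosolic and makes retinoic acid from retinal, ALDH1B1 is a mitochondrial relative of ALDH2, and ALDH1L1 uses the aldehyde dehydrogenase fold to oxidise a folate. The class I genes are expressed mainly in differentiated hepatocytes and serve as markers of hepatic maturity.

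The ADH genes lie side by side on chromosome 4, and the upstream sequences of the tested members with a RefSeq entry are shown, those of ALDH1A1 and ALDH1B1 being on chromosome 9. RefSeq promoter entries of GRCh38.p14 were at hand for 9 of the 10 genes, and ALDH2 had none. Each line holds the 150 bases before the annotated start, 5′ to 3′ on the gene's strand, with capitals marking a match to 1 of the searched motifs.
ADH1A: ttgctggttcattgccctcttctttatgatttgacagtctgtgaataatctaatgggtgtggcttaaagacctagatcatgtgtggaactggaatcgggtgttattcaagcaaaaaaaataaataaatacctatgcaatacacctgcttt
ADH1B: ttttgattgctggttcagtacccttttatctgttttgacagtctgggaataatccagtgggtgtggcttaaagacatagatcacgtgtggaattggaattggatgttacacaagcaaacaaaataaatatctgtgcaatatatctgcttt
ADH4: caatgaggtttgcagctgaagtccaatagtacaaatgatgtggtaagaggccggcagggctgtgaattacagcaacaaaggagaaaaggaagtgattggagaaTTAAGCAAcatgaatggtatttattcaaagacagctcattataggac
ADH6: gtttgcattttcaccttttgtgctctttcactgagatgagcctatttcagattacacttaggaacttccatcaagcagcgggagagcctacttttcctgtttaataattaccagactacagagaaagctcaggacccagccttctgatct
ALDH1A1: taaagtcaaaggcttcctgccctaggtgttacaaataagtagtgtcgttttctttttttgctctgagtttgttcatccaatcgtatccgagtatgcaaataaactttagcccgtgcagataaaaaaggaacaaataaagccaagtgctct
ALDH1B1: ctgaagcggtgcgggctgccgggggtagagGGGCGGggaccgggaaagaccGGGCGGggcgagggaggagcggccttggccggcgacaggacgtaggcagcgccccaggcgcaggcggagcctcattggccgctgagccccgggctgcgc

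The windows lie on the minus strand at chr4:99290986-99291135 (ADH1A), chr4:99321402-99321551 (ADH1B), chr4:99144298-99144447 (ADH4), chr4:99219247-99219396 (ADH6) and chr9:72953054-72953203 (ALDH1A1), and on the plus strand at chr9:38392552-38392701 (ALDH1B1). Over the 250 bases before the start, ADH1A, ADH1B, ADH4 and ADH6 held 1 CpG each and ALDH1A1 held 6, against 23 in ALDH1B1 and a median of 11 in 27305 promoters. ADH1C held 6, ALDH1L1 held 20, and ADH5, also in the ADH cluster, held 21. CpG content was not tested against the expression changes. The windows of ADH1A and ADH1B were identical at 82.2% of aligned positions, and those of ADH1A and ADH4 at 55.0%. The same 250 bases were searched on both strands for 5 short motifs. A core of the hepatocyte factor HNF1, spelled GTTAAT, was held by 6.2% of all promoters in windows of that length. The letters TTNNGCAA of the liver-enriched C/EBP factors were held by 9.1%. The letters CAAAGTC, part of the sites of the hepatocyte factor HNF4, were held by 2.9%. The TATA box, searched as TATAAA, was in 11.1%. The GC box, searched as GGGCGG, was in 42.3%. With -1 as the base before the start, ADH4 had the C/EBP letters at -47 to -40 and farther out 1 HNF1 core, while ALDH1B1 had 2 GC boxes. ADH4 also had 2 matches of the TATA letters, both on the opposite strand, at -238 to -233 and -207 to -202. ADH5 had 2 matches of the C/EBP letters and 2 GC boxes. ALDH1L1 had 4 GC boxes, of which 2 overlapped, and 1 match of the TATA letters on the opposite strand at -149 to -144. None of these letters was found in the windows of ADH1A, ADH1B, ADH1C, ADH6 or ALDH1A1. A match is a description of the letters and says nothing of factor binding in these cells.

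Sequencing depth ranged from 1061359 to 5250260 counts (median 3702007), and the mean total at C5 was 48.9% (vorinostat) to 97.2% (trichostatin A) of that at C1. In 3 groups 1 library stood apart from its group mates. These were the C1 library of trichostatin A in batch 3, the C2 library of mocetinostat in batch 3 and the C4 library of scriptaid in batch 3, with mean correlations of 0.9054, 0.8912 and 0.8509 with their mates. The C4 libraries of scriptaid in batches 1 and 2 were also low, at 0.894 and 0.902, so that whole group agreed poorly. The trichostatin A library was in the reference group of that chemical, and the C5 changes of members are given with and without it. Values of genes outside the set, and counts over gene lists, include that library. The level unit below is CPM, the count brought to a common library size. Probes differ in efficiency, so levels are compared between samples of 1 feature and never between features. A feature was called when edgeR's Benjamini-Hochberg adjusted p was under 0.05 and the fold change at least 1.5, and "fell" or "rose" is used for called changes only.

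Over the 7 chemicals other than trichostatin A, the 5 tested ADH features fell at C5 in all 35 combinations of feature and chemical. The C1 and C5 libraries did not overlap in any of the 35, and the C5 library was below the C1 library of its own batch in 105 of 105 cases. These cases reuse the same libraries for every feature and are not independent. Overlap and direction were not counted over all features, so only the share that fell is set beside them below. The 3 tested ALDH features divided. ALDH1A1 fell in 7 of 7 chemicals, ALDH2 in 4 and ALDH1B1 in none. Among all features tested, the share that fell at C5 was 15.0% for apicidin, 15.7% for mocetinostat, 9.46% for panobinostat, 17.0% for scriptaid, 20.1% for tacedinaline, 6.22% for valproic acid and 24.9% for vorinostat, and 0.0154% for trichostatin A. The number of members that fell, of 8 tested, was 7 in apicidin, mocetinostat, tacedinaline and vorinostat and 6 in panobinostat, scriptaid and valproic acid. The median log2 change of the 8 was -6.35 in mocetinostat, -5.93 in tacedinaline, -5.93 in vorinostat (-5.87 with ADH4 at its bound), -5.83 in scriptaid, -4.31 in apicidin, -2.32 in valproic acid and -1.72 in panobinostat. The median of all features lay between -0.0 and 0.08 in every chemical.

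**Figure D1:**
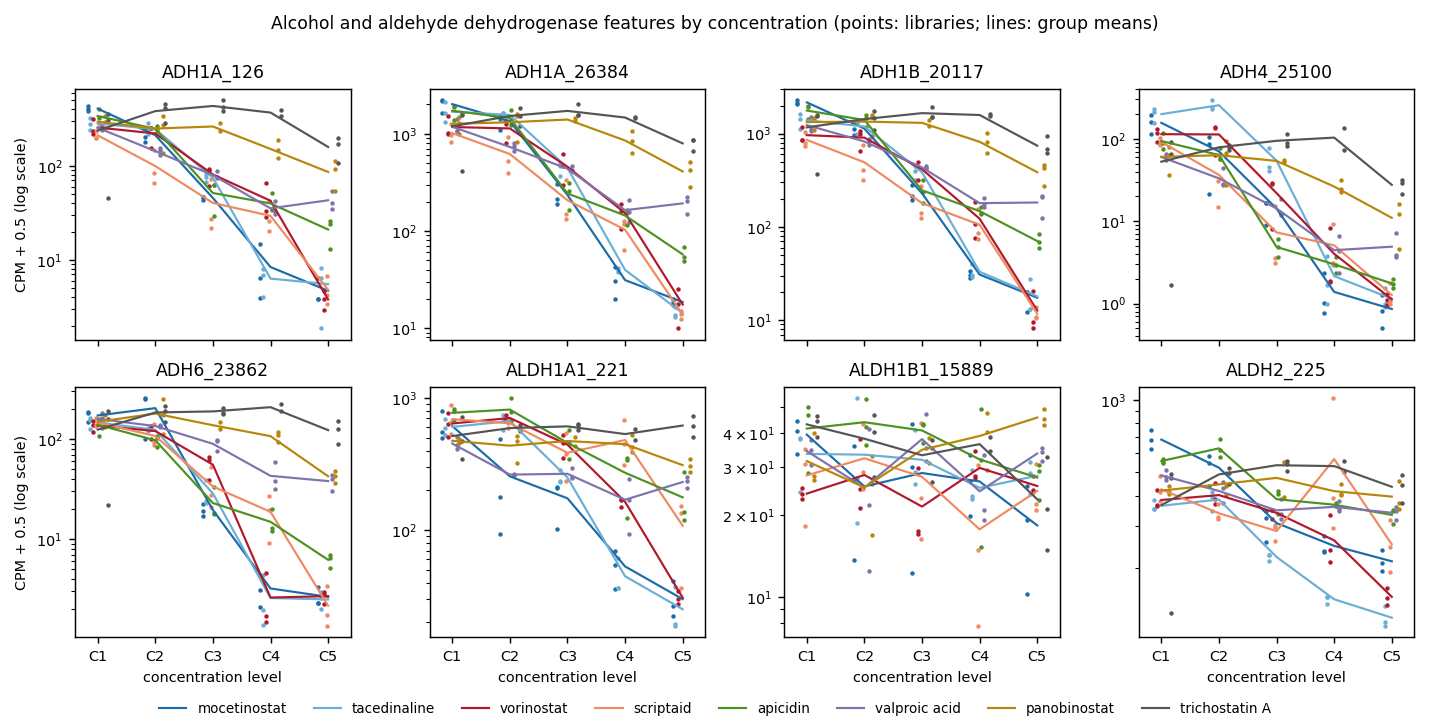
Level of 8 features at each concentration level, as CPM plus 0.5 on a log axis, in 8 chemicals; points are libraries, lines join group means. The 4 ADH genes fall by C5 in every chemical but trichostatin A, whose low C1 point is the batch 3 library, while ALDH1B1 stays between 7.3 and 53.4 CPM in all libraries.

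ADH1B, the class I enzyme named for its beta subunit, showed the pattern of the class. In mocetinostat its C1 libraries held 2277.7, 2150.5 and 2064.2 CPM and its C5 libraries 19.6, 19.3 and 11.8 CPM. In tacedinaline they held 1638.3, 1423.3 and 1115.4 CPM at C1 and 27.2, 12.7 and 12.6 CPM at C5. Every C5 library was thus far below every C1 library. The level left at C5, taken within each batch, was 0.776% ± 0.177 of C1 in mocetinostat (SD, n = 3) and 1.23% ± 0.395 in tacedinaline. The log2 changes were -6.91 (SE 0.268, edgeR adjusted p = 1.94e-10) and -6.28 (SE 0.217, adjusted p = 1.18e-25).

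The hydroxamates vorinostat and scriptaid gave values of the same order for ADH1B. Vorinostat went from 854.4, 1173.3 and 863.4 CPM at C1 to 8.98, 19.8 and 7.67 CPM at C5 (log2 change -6.12, SE 0.305, edgeR adjusted p = 1.53e-17). Scriptaid went from 1049.0, 787.2 and 733.8 CPM to 13.4, 10.2 and 10.0 CPM (-6.18, SE 0.464, adjusted p = 1.46e-07). In both chemicals each C5 library lay far below the lowest C1 library. The 2 chemicals share a hydroxamate group but were given at different concentrations, so their responses are set side by side and not compared.

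Apicidin left somewhat more ADH1B transcript. Its C1 libraries held 1959.3, 1911.3 and 1437.1 CPM and its C5 libraries 82.9, 68.5 and 58.7 CPM, or 3.97% ± 0.341 of C1 (log2 change -4.65, SE 0.219, edgeR adjusted p = 1.14e-11). Valproic acid kept 14.9% ± 4.31 of C1, with 1080.1, 1516.8 and 1108.8 CPM falling to 212.2, 209.8 and 124.5 CPM (-2.75, SE 0.187, adjusted p = 1.61e-09). Panobinostat kept 28.6% ± 3.37, with 1482.8, 1411.6 and 1095.9 CPM falling to 458.2, 427.1 and 271.4 CPM (-1.80, SE 0.219, adjusted p = 4.8e-06). In none of these chemicals did the C5 libraries reach the C1 libraries.

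ADH1A, the class I gene of the alpha subunit, was read by a pair of probes, and both gave the same calls in every chemical at C5. For ADH1A_26384 the log2 changes ran from -6.85 (tacedinaline) to -1.64 (panobinostat) over the 7 chemicals, and for ADH1A_126 from -6.49 (mocetinostat) to -1.80. The C1 group means of ADH1A_26384 lay between 1013.3 and 2014.9 CPM and its C5 means between 13.3 and 408.3 CPM. As a description of probe readings over all 8 chemicals, trichostatin A included, the log2 ratio of ADH1A_26384 to ADH1B was 0.07 ± 0.18 (SD, n = 24) at C1 and 0.07 ± 0.43 at C5. That of ADH1A_126 to ADH1B was -2.24 ± 0.26 at C1 and -1.88 ± 0.56 at C5. ADH1A, ADH1B and ADH1C are near-identical in sequence, and which of them a probe reads is uncertain, since probe sequences were not used here.

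ADH1C, the gamma subunit gene, gave at most 11 counts in a library (2.68 CPM) and 0 in the median library. It passed the filter on low counts in no chemical and was not tested. Its levels are too low at this depth to show a change.

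ADH4, the class II enzyme active on ethanol at high concentration and on retinol, lost nearly all of its reads. Its C1 libraries in mocetinostat held 114.7, 191.7 and 160.2 CPM, and its C5 libraries 0.773, 0.0 and 0.303 CPM, which are 0 to 3 counts. Set against the level that 3 counts would give, ADH4 was at least 190.3-fold lower in mocetinostat, at least 159.5-fold lower in tacedinaline, at least 77.0-fold lower in scriptaid and at least 60.3-fold lower in vorinostat. In these 4 chemicals no C5 library had more than 3 counts of ADH4. Apicidin went from 118.0, 87.5 and 74.6 CPM to 1.05, 1.47 and 1.24 CPM (log2 change -6.17, SE 0.343, edgeR adjusted p = 9.91e-11). Valproic acid kept 7.59% ± 4.00 of C1 (-3.74, SE 0.365, adjusted p = 2.5e-07) and panobinostat 16.9% ± 6.84 (-2.52, SE 0.416, adjusted p = 0.00017). In apicidin, valproic acid and panobinostat, where ADH4 stayed above the floor, its fitted change was the lowest of the 5 ADH features. Differences between features were not tested, and trichostatin A, also above the floor, is described below.

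ADH6, the class V gene whose substrates are less well known, also fell in 7 of 7 chemicals. Its C1 group means lay between 135.9 and 172.0 CPM, and its C5 means between 1.66 CPM in scriptaid and 42.0 CPM in panobinostat. Vorinostat separated ADH6 from the class I genes at C4. The C4 libraries held 4.12, 0.986 and 1.21 CPM of ADH6 against 150.9, 138.3 and 118.4 CPM at C1, or 1.49% ± 1.09. ADH1B in those C4 libraries was still at 107.9, 75.3 and 182.4 CPM, or 13.4% ± 7.38 of C1. The log2 changes at C4 were -6.23 (SE 0.34, edgeR adjusted p = 6.04e-16) for ADH6 and -2.93 (SE 0.235, adjusted p = 6.21e-12) for ADH1B, and at C5 they were -5.82 and -6.12. The difference between the features at C4 was not tested.

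**Figure D2:**
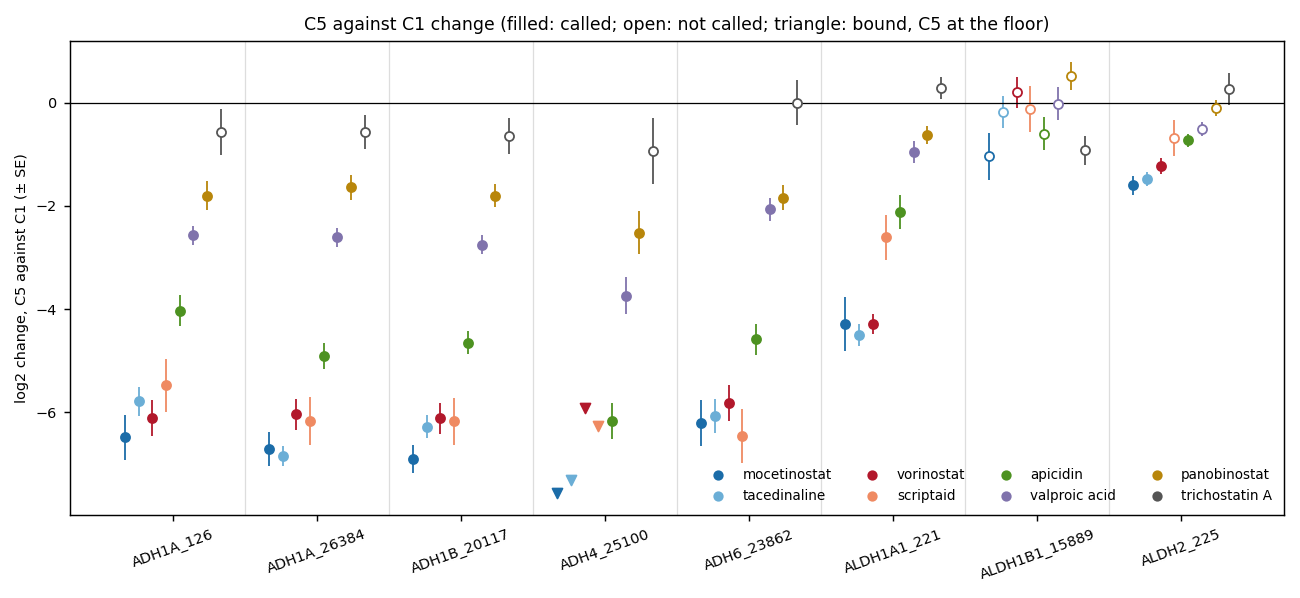
Log2 change from C1 to C5 of each tested feature with its standard error, 1 point per chemical; filled points were called, open points were not, and triangles are bounds where every C5 library had at most 3 counts. The ADH features lie between -1.64 and -6.91 outside ADH4 and trichostatin A, ALDH2 between -1.60 and 0.27, and no ALDH1B1 point is filled.

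The lowest concentration at which members fell depended on the chemical. At C2 no member was called in any chemical by edgeR, and the share of all features that fell was 0.0315% in apicidin, 0.0383% in mocetinostat, 0.0883% in tacedinaline, 0.0086% in vorinostat and 0.0% in panobinostat, scriptaid, trichostatin A and valproic acid. At an unadjusted p under 0.05, a looser limit that these shares do not use, there were 0 (panobinostat, tacedinaline, trichostatin A and vorinostat) to 5 (valproic acid) members of 8. The ADH1B level at C2 was 52.6% ± 9.07 of C1 in mocetinostat, 55.6% ± 14.7 in scriptaid and 68.2% ± 13.0 in valproic acid. Outside trichostatin A the other chemicals had 79.5% (apicidin) to 100.2% (panobinostat). With so few calls among all features, the lack of member calls does not show that C2 had no effect. At C3, 7 members of 8 fell in mocetinostat (background 5.14%) and in tacedinaline (6.46%). In apicidin (8.39%), scriptaid (0.876%) and vorinostat (3.88%) 5 fell, namely all tested ADH features. In valproic acid (0.84%) 4 fell at C3, with ADH6 at -0.84 and an edgeR adjusted p of 0.0569. None fell in panobinostat or trichostatin A, where no feature did (0.0% in both).

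At C4, 7 members fell in apicidin (11.2% of all features), mocetinostat (11.6%) and tacedinaline (16.4%), 6 in valproic acid (6.35%) and vorinostat (16.7%), 5 in scriptaid (2.67%) and none in panobinostat (1.4%) or trichostatin A (0.0%). In panobinostat 3 members were called at C4 with the batch as a block. Without batch 2, which leaves 2 libraries in a group, 0 members were called in scriptaid at C3 and 1 at C4. Over the 3 batches the ADH1B level in scriptaid was 15.6 to 26.1% of C1 at C3 and 10.1 to 14.8% at C4. Why the calls were lost was not tested. In valproic acid, 2 members were called at C3 without batch 1. Over the 7 chemicals other than trichostatin A, the C4 level of an ADH feature was below the C1 level of the same batch in 105 of 105 pairs of feature and library, panobinostat included. The ADH features share the same libraries, so these pairs are not independent, and the same count over all features was not made. In trichostatin A the fitted ADH changes at C4 were 0.31 to 0.98 with all libraries. Without the low C1 library of batch 3 they were -0.1 (ADH1A_26384) to 0.41 (ADH4), and none was called either way.

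The order of the group means along the concentrations varied by feature. The mean was lower at every step from C1 to C5 in 5 of 8 chemicals for ADH1A_126, ADH1A_26384 and ADH1B, in 4 for ADH4 and ADH6, in 1 for ALDH1A1 and ALDH2 and in 0 for ALDH1B1. These steps were not tested one by one. In valproic acid the means of ADH1B at C4 and C5 were 179.2 ± 21.3 and 182.2 ± 50.0 CPM (SD, n = 3), which do not differ beyond their spread, and its C4 and C5 labels are close. The linear trend on log2 concentration called 7 members in apicidin (17.2% of all features), mocetinostat (17.7%), tacedinaline (21.5%) and vorinostat (23.0%), 6 in valproic acid (7.73%), 5 in panobinostat (9.35%) and scriptaid (6.18%) and 0 in trichostatin A (0.0462%). The slope of no member differed among the 3 HepaRG batches in any chemical after adjustment, and the lowest unadjusted p was 0.05706, for ALDH2 in trichostatin A (edgeR). Over all features that test passed 0 in every chemical, with 59 (scriptaid) to 1280 (trichostatin A) at an unadjusted p under 0.05. A test that passed no feature at all cannot show that the batches responded alike.

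ALDH1A1, the cytosolic retinal dehydrogenase, fell at C5 in 7 of 7 chemicals, and its change was not tested against those of the ADH features. In tacedinaline its libraries held 587.9, 696.7 and 526.2 CPM at C1 and 18.3, 36.6 and 19.1 CPM at C5, or 4.00% ± 1.12. Vorinostat left 4.95% ± 1.62 and mocetinostat 4.79% ± 0.705, while scriptaid left 17.4% ± 11.6 and apicidin 23.8% ± 14.1. In scriptaid the C5 libraries were uneven, at 134.0, 152.5 and 35.8 CPM, but all lay below the lowest C1 library of 537.7 CPM. In valproic acid ALDH1A1 kept 51.7% ± 9.30 (log2 change -0.96, SE 0.218, edgeR adjusted p = 0.00522), a call lost without batch 1 (adjusted p = 0.129). In panobinostat it kept 65.3% ± 5.33 (-0.63, SE 0.172, adjusted p = 0.0133), and this call was lost without any 1 of the 3 batches.

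ALDH2, the mitochondrial enzyme that clears acetaldehyde, fell at C5 in mocetinostat, tacedinaline, vorinostat and apicidin. In mocetinostat its libraries held 679.2, 623.1 and 748.1 CPM at C1 and 208.8, 235.9 and 193.1 CPM at C5 (log2 change -1.60, SE 0.182, edgeR adjusted p = 6.4e-06). In tacedinaline they held 351.2, 383.7 and 351.7 CPM at C1 and 118.8, 138.0 and 114.1 CPM at C5 (-1.48, SE 0.137, adjusted p = 6.02e-12). The C1 and C5 libraries did not overlap in either chemical. The change was -1.23 (SE 0.152) in vorinostat and -0.73 (SE 0.129) in apicidin. In valproic acid the change of -0.51 (SE 0.129, adjusted p = 0.0116) was under the fold limit of 1.5, and in panobinostat the value was -0.10 (SE 0.158, adjusted p = 0.733). In scriptaid the C5 value was -0.69 (SE 0.35, adjusted p = 0.146), and it was called when no filter on low counts was set (-0.77, adjusted p = 0.0467). At C4 of scriptaid the batch 3 library, 1 of those that stood apart, held 1018.4 CPM of ALDH2 against 389.7 and 293.0 CPM in its mates.

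ALDH1B1, the mitochondrial relative of ALDH2, was called by edgeR at no concentration of any chemical, with 2 of 32 comparisons with C1 at an unadjusted p under 0.05. Its level was 7.3 to 53.4 CPM over 118 libraries, with a median of 30.1 CPM and 10 to 235 counts per library. Its C5 changes ran from -1.04 in mocetinostat (SE 0.453, edgeR adjusted p = 0.0948) to 0.52 in panobinostat (SE 0.264, adjusted p = 0.195). In mocetinostat the libraries held 43.8, 40.1 and 33.1 CPM at C1 and 25.0, 18.7 and 9.7 CPM at C5, which do not overlap, and in panobinostat 27.3, 39.5 and 26.4 CPM at C1 and 44.5, 42.2 and 48.8 CPM at C5. With 1 batch left out it was called in mocetinostat (-1.33 without batch 1, edgeR adjusted p = 0.0337) and in panobinostat (0.80 without batch 2, adjusted p = 0.0483). Standard errors of 0.264 to 0.453 mean that a moderate change in either direction could have gone unseen.

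ALDH1L1, a cytosolic folate enzyme that produces NADPH and carbon dioxide from formyl-tetrahydrofolate, gave at most 23 counts in a library (7.35 CPM) and 2 in the median library. It failed the filter in the fit of each chemical. In the fit of all 118 libraries it was tested, and its C5 change did not pass as different among chemicals (edgeR adjusted p = 0.264).

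Trichostatin A was the exception among the chemicals in the number of calls. With all libraries no member was called at any concentration by edgeR or, at C5, by DESeq2, and of 8 tested only ALDH1B1 at C5 had an unadjusted p under 0.05. Its log2 change was -0.92 (edgeR adjusted p = 0.38). For ADH1B its C1 libraries held 1566.1, 1564.8 and 370.8 CPM and its C5 libraries 680.5, 612.4 and 934.6 CPM (log2 change -0.64, SE 0.351, edgeR adjusted p = 0.589). The C1 library of batch 3 was the low one, and its 370.8 CPM lay below every other trichostatin A library. The same library held 1.19 CPM of ADH4 against 91.0 and 64.4 CPM in its mates, 21.5 CPM of ADH6 against 158.5 and 192.0 CPM, and 129.9 CPM of ALDH2 against 473.8 and 490.6 CPM.

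Without that library, 4 members fell at C5 of trichostatin A, while 0.645% of all features fell. They were ADH1A_126 (log2 change -1.07, SE 0.21, edgeR adjusted p = 0.0116), ADH1A_26384 (-0.98, adjusted p = 0.00237), ADH1B (-1.07, adjusted p = 0.00235) and ADH4 (-1.52, adjusted p = 0.00237). ADH6 was at -0.51 (adjusted p = 0.303), ALDH1A1 at 0.06, ALDH2 at -0.14 and ALDH1B1 at -0.87, none of them called. At C2, C3 and C4 the ADH1B libraries lay between 1089.6 and 1941.1 CPM, a range that holds both other C1 libraries.

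**Figure D3:**
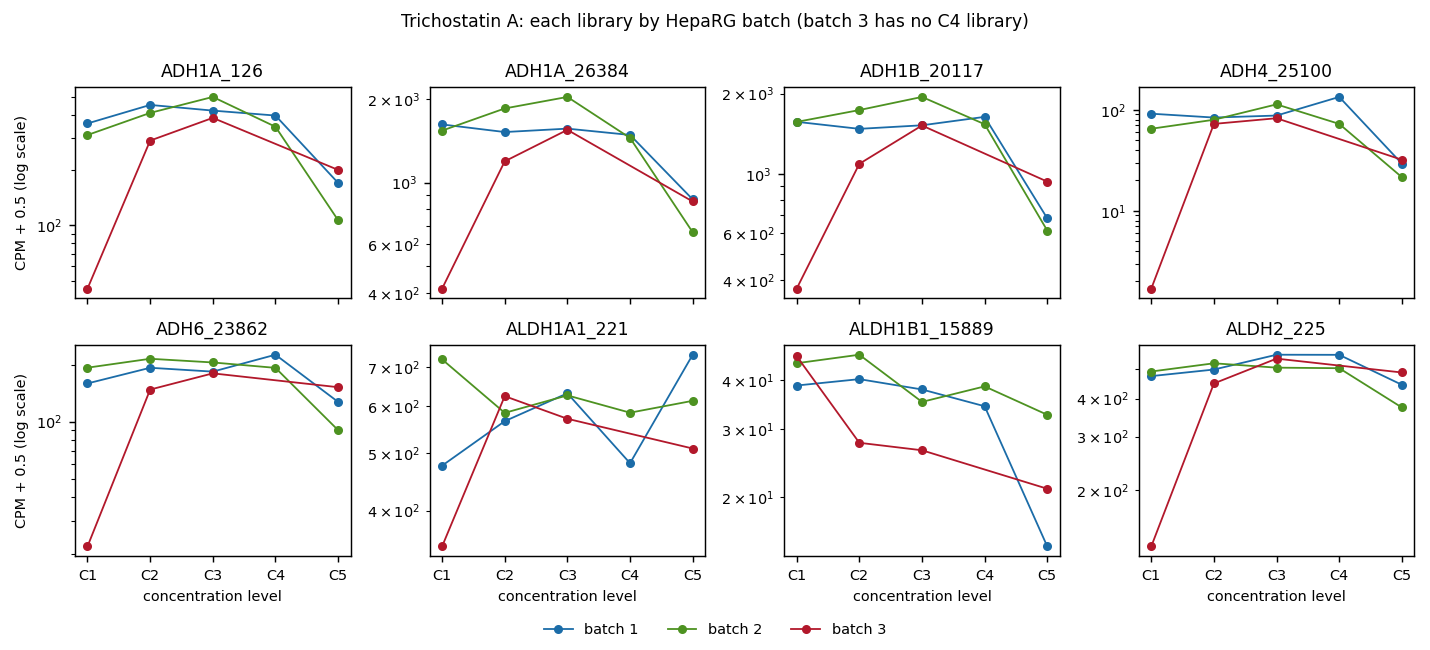
Level of 8 features in each trichostatin A library, as CPM plus 0.5 on a log axis, with lines joining the libraries of 1 HepaRG batch. The batch 3 line starts low at C1 for the ADH features and ALDH2, and in batches 1 and 2 the ADH1B level at C5 is 680.5 and 612.4 CPM after 1566.1 and 1564.8 CPM at C1.

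Whether the size of the C5 change differed among the 8 chemicals was tested in 1 fit of all libraries, in which 30.3% of all features passed. The 5 ADH features, ALDH1A1 and ALDH2 passed, with edgeR adjusted p from 2.55e-28 (ADH1A_26384) to 4.93e-08 (ALDH2), and ALDH1B1 did not (adjusted p = 0.103). The same 7 features passed without trichostatin A (21.4% of all features), and among the 4 remaining chemicals of plate H (12.9%). Among the 3 chemicals of plate E, where 3.29% of all features passed, ALDH1A1 passed (adjusted p = 0.0113) and the others did not, with adjusted p from 0.283 to 1. Plate and chemical cannot be told apart in the comparison of all 8. The concentrations differed between chemicals, so this test speaks of the C5 groups as given and not of potency.

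The genes beside the ADH cluster were listed in the order of the RefSeq table, 5 on either side. MTTP, whose product loads lipid onto nascent lipoproteins in hepatocytes, fell at C5, with all libraries kept, in the same 7 chemicals as the ADH genes. In apicidin it went from 55.4 ± 8.87 CPM at C1 to 5.12 ± 0.569 CPM at C5 (SD, n = 3). In trichostatin A MTTP held 37.0 ± 29.2 CPM at C1, the low C1 library included, and 46.8 ± 15.8 CPM at C5. In tacedinaline its C5 libraries had at most 3 counts, and it was at least 34.0-fold lower. Of the 7 neighbours tested, no other fell in any chemical. TSPAN5, a tetraspanin, rose in 5 chemicals (log2 changes of those calls 1.14 to 2.26), RAP1GDS1, an exchange factor of small GTPases, in 3, and TRMT10A, a tRNA methyltransferase, in 2. EIF4E, the cap-binding translation factor, rose in vorinostat and STPG2 in apicidin, while METAP1, a methionine aminopeptidase, was called nowhere. The share of all features that rose at C5 was 13.8% in apicidin, 14.8% in mocetinostat, 6.77% in panobinostat, 12.8% in scriptaid, 18.7% in tacedinaline, 4.84% in valproic acid, 22.7% in vorinostat and 0.0% in trichostatin A. C4orf17, C4orf54 and DAPP1 were too low to test, as was ADH7, the class IV gene within the cluster, which had 0 counts in 115 libraries.

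**Figure D4:**
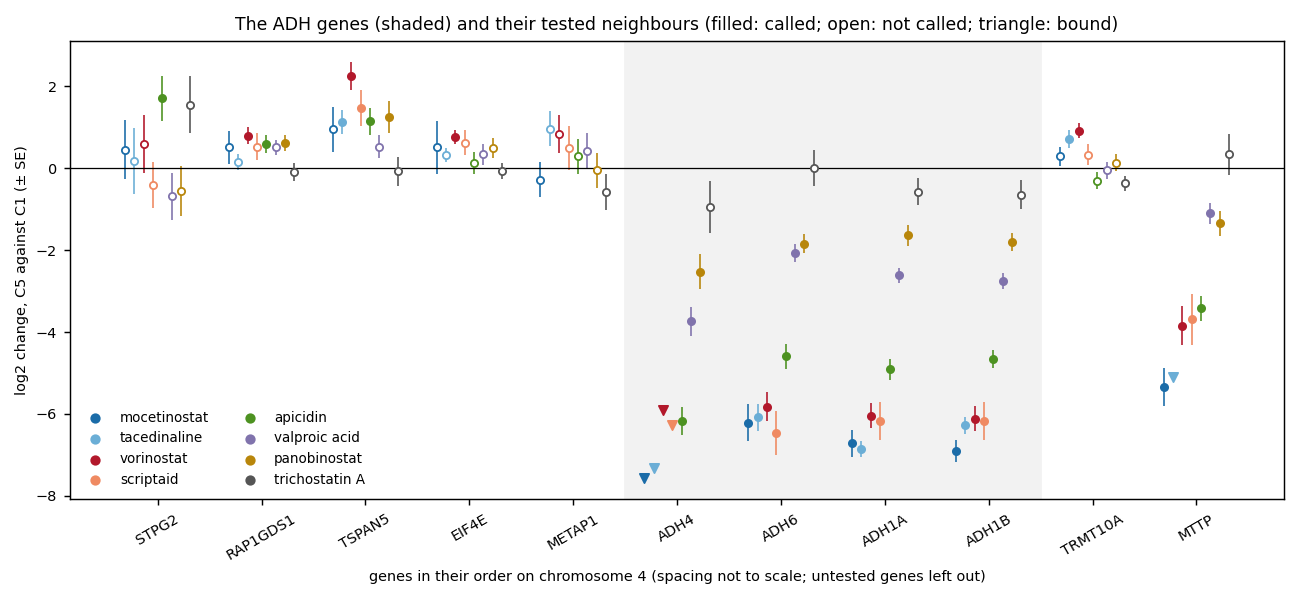
Log2 change from C1 to C5 with its standard error for the tested genes around the ADH cluster, in their order on chromosome 4 with even spacing, 1 point per chemical; filled points were called and triangles are bounds. The shaded ADH genes and MTTP lie below 0 in every chemical but trichostatin A, while called points of the other neighbours lie above 0. Trichostatin A values include its low C1 library.

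Among the other genes of ethanol handling, CYP2E1, the microsomal ethanol oxidase, fell in 7 chemicals with a median log2 change of -3.64 over the 8. CAT, the peroxisomal catalase, fell in 6 (median -1.39) and ACSS2, which activates acetate, in 2. Of the other ADH and ALDH genes, 20 features of 17 genes were listed and 11 to 15 were tested per chemical. At C5, 9 of 13 fell in mocetinostat (15.7% of all features), 8 of 12 in tacedinaline (20.1%), 7 of 14 in apicidin (15.0%) and 7 of 11 in vorinostat (24.9%). In panobinostat 4 of 15 fell (9.46%), in scriptaid 4 of 13 (17.0%), in valproic acid 3 of 14 (6.22%) and in trichostatin A 0 of 14 (0.0154%). ALDH16A1_90208 fell in 7 chemicals (median -2.49) and ALDH3B1, which acts on fatty aldehydes, in 6 (median -1.56). The other ALDH16A1 probe, ALDH16A1_88379, fell in 3 of the 7 chemicals where it was tested. The only call in the rising direction was ALDH18A1, a proline synthesis enzyme, in vorinostat (log2 change 2.06).

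Retinoid genes, some of which share substrates with ADH4 and ALDH1A1, moved both ways. RDH16, a retinol dehydrogenase of liver, fell in 7 chemicals (median log2 change -4.42), as did RBP4, the plasma carrier of retinol (median -1.71). In apicidin 6 of 14 tested retinoid features rose and 3 fell, while 13.8% of all features rose and 15.0% fell. In vorinostat 4 rose and 5 fell of 12, while 22.7% of all features rose and 24.9% fell. The retinoid features that rose are not named here. Of the folate features around ALDH1L1, 5 of 14 fell in mocetinostat and scriptaid, 5 of 12 in tacedinaline and vorinostat, 4 of 13 in apicidin, 2 of 14 in panobinostat and 1 of 14 in valproic acid, and none rose. The last 2 counts are near the shares of all features that fell there, 9.46% and 6.22%. MTHFS, which recycles a folate form, fell in 7 (median -1.33) and GLDC_90919, a subunit of the glycine cleavage system, in 6 (median -0.96). Other probes of GLDC fell in fewer, GLDC_91385 in 4, GLDC_91713 in 2 and GLDC_91621 in 0.

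Markers of hepatocytes moved with the ADH genes. All 10 fell at C5 in mocetinostat, scriptaid, tacedinaline and vorinostat, 9 in apicidin and valproic acid, 8 in panobinostat and 0 in trichostatin A. Their summed level was 38693.5 to 70938.2 CPM in the C1 libraries of the 7 chemicals. At C5 it was 3086.9 to 9407.6 CPM in mocetinostat, scriptaid, tacedinaline and vorinostat, 16708.4 to 21664.9 CPM in apicidin and valproic acid, and 23226.8 to 30177.6 CPM in panobinostat. In trichostatin A the C1 libraries spanned 13933.0 to 58039.4 CPM, the lowest being that of batch 3. ALB, for serum albumin, fell in 7 chemicals with a median log2 change of -2.41, APOB with -2.67, TF with -2.58 and FGB with -2.54. The median for AHSG was -5.10, or -4.09 with the groups at the floor set to their bound.

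Markers of other cells the cultures could hold were counted in the same way. Of the biliary and progenitor markers, 4 features were tested in those 7 chemicals, namely SPP1, SOX9, KRT19_3690 and KRT19_10816, and 1 to 3 rose. SPP1 and SOX9 rose in 5 chemicals each, KRT19_3690 in 1 and KRT19_10816 in 0. The share of all features that rose was 4.84% (valproic acid) to 22.7% (vorinostat), and the 1 of 4 in vorinostat is near that share. The summed level of the listed markers did not overlap between C1 and C5 in apicidin (81.1 to 98.0 against 201.0 to 224.9 CPM), panobinostat, valproic acid and vorinostat. Their summed level over the 7 chemicals was 63.7 to 161.0 CPM at C1 and 79.1 to 224.9 CPM at C5. Of 8 stromal features tested, DCN_1779, DCN_27098 and DCN_27099 among them, 2 to 4 fell and 0 to 2 rose. The share of all features that fell was 6.22% (valproic acid) to 24.9% (vorinostat). The 2 that fell in scriptaid and the 2 that rose in vorinostat are near the shares of all features there, 17.0% and 22.7%. The sum of the stromal list over the 7 chemicals lay between 175.1 and 296.3 CPM at C1 and between 104.2 and 226.9 CPM at C5. Within a chemical it was lower at C5 without overlap in apicidin, mocetinostat, scriptaid, tacedinaline and vorinostat. It overlapped in panobinostat and valproic acid. The collagen feature COL3A1_28516 fell in 7 chemicals (median log2 change -2.45) and ACTA2, a smooth muscle actin, in 7 (median -1.52). DCN_27098, for the proteoglycan decorin, fell in 6 (median -1.35), against 3 for DCN_1779 and 1 for DCN_27099. COL1A1 rose in 6 (median 1.63). EPCAM was at 0 in 113 libraries, COL1A2 in 99 and KRT7_3703 in 77. In bulk lysates, fewer hepatocyte-like cells and less ADH transcript per cell cannot be told apart, and the part of cell composition in the fall of the ADH genes was not tested.

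Over 118 libraries, after the mean of each chemical was removed from log2 CPM, the ADH features correlated with each other at Pearson's r of 0.924 to 0.992, the highest pair being ADH1A_26384 and ADH1B. These libraries share plates and batches, and the values are descriptions. ALDH1A1 correlated with the ADH features at 0.859 to 0.911 and ALDH2 at 0.783 to 0.849, while ALDH1B1 reached 0.188 to 0.272. Outside the set, features most like ADH1B included C4B (0.967) and CYP3A7-CYP3A51P (0.963). For ADH1A_26384 they were C4B (0.969), GSTA1 (0.964) and CYP3A7-CYP3A51P (0.962), and for ADH1A_126 HAAO (0.958), C4B (0.955) and AGXT (0.955). AGXT, a peroxisomal aminotransferase of liver, led for ADH4 (0.958) and for ADH6 (0.965). SERPINA10 (0.953) was also among the features most like ADH4, and BAAT (0.959) among those most like ADH6.

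The ALDH genes had other neighbours in this measure. Those of ALDH1A1 were MGST1 (0.965), a microsomal glutathione transferase, TFPI (0.96) and UGDH (0.947), and those of ALDH2 were CPT2 (0.90), a mitochondrial carnitine transferase, CRYL1 (0.893) and THNSL2 (0.888). The highest values for ALDH1B1 were lower, with ATP5PB (0.69) and C1orf43 (0.661) among them. For ALDH1L1 they were RTKN (0.599), KDM3B (0.59) and RIOX2 (0.585), at counts too low to read.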

How the data were processed

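TempO-Seq libraries of HepaRG cells were analysed from the probe counts that the authors deposited as raw whole numbers, 1 row per detector probe and 1 column per library. The submitters' processing notes name bcl2fastq 2.20.422, fastp 0.23.2, STAR 2.7.10b and DESeq2 1.38.0, with roles not given in the sources used here, and the genome build of the counts is likewise not given. Of 22069 rows 22068 were used, since the last lacked values in 88 libraries, and rows that may follow it were not analysed here. Groups, concentrations and HepaRG batches came from the labels. The paper read with these data covers another HepaRG experiment and gave style only.

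Fits were made 1 chemical at a time with edgeR 4.0.16 under R 4.3.3 (filterByExpr, TMM scaling, quasi-likelihood F tests without a batch term), as C2 to C5 against C1 and as a slope on log2 concentration. P-values were adjusted by Benjamini-Hochberg over all features of a comparison, and the standard error is the absolute log2 change over the square root of F. Differences among chemicals and among batches were tested in further edgeR fits. A group with at most 3 counts in every library was treated as at the floor and its fold given as a bound. This covers counting error only, because reads carry no molecular identifiers.

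The replicate numbers are HepaRG batches and so pair the samples. As a check, deviations from group means were correlated between libraries, with medians of 0.023 (232 pairs within a batch) and -0.0109 (464 pairs across batches). Nothing says more of how separate the cultures of a batch were, so p-values measure the spread between these batches. No 2 libraries of a group were near copies (chi-square per feature 3.41 to 101 in 116 pairs). Alternatives were DESeq2 1.42.0, its size factors, no filter, a batch block, each replicate left out, thinned counts, no fold limit and probes summed per gene. Leaving out the C1 library of trichostatin A in batch 3, leaving out trichostatin A, and the tests within a plate were chosen after seeing the data. The scripts were tested on simulated data.

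The members and gene lists were chosen with earlier results of these data known. All member features are named, features of a list where at least 6 of 8 chemicals called them in the same direction (at most 8 a list), all neighbours of the ADH genes, and the 3 features most correlated with each member, some of which are not reported here. ACSS2, ALDH18A1 and further probes of GLDC, ALDH16A1 and DCN were named after their values were seen. Promoter sequences and gene order came from RefSeq tables of GRCh38.p14.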

Additional observations from a re-analysis of the deposited data

Results flagged for a closer look

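The C5 against C1 change differed among the 8 chemicals for 7 features (edgeR F test over 118 libraries, Benjamini-Hochberg adjusted). The adjusted p was 2.72e-19 for ADH1A_126, 2.55e-28 for ADH1A_26384, 1.04e-27 for ADH1B, 1.05e-12 for ADH4, 7.37e-23 for ADH6, 1.15e-18 for ALDH1A1 and 4.93e-08 for ALDH2. The log2 changes of ADH1B ran from -6.91 in mocetinostat to -0.64 in trichostatin A. Those of ALDH1A1 ran from -4.50 in tacedinaline to 0.28 in trichostatin A, and those of ALDH2 from -1.60 in mocetinostat to 0.27 in trichostatin A. Without the low C1 library of batch 3 the trichostatin A values were -1.07 for ADH1B, 0.06 for ALDH1A1 and -0.14 for ALDH2. Within plate E, ALDH1A1 alone differed among the chemicals (adjusted p = 0.0113), with -4.50 in tacedinaline, -4.29 in vorinostat and -2.61 in scriptaid.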

How the results depend on the processing

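Of 46 member changes called at C5, 368 values under the alternatives kept their call in 364 cases, and none of the 46 changed direction. The calls lost were ALDH1A1 in panobinostat without each replicate (log2 change -0.70, -0.56 and -0.62) and in valproic acid without replicate 1 (-1.04). Changes that turned sign were never called. With single replicates left out, ALDH1B1 read -0.31 to 0.06 in scriptaid, -0.48 to 0.0 in tacedinaline and -0.12 to 0.03 in valproic acid, and with thinned counts 0.08 in valproic acid and -0.01 in vorinostat. In trichostatin A, ADH6 read 0.19 with the batch as a block, 0.0 by DESeq2's Wald test, and -0.68 to 0.64 with single replicates left out, while ALDH2 read -0.23 to 0.64 and, without its C1 library of batch 3 alone, -0.14. With the batch as a block, panobinostat C4 had 3 member calls (2 without replicate 2) in place of 0, trichostatin A C5 had 1 feature call in place of 2, and no other count moved by over 1.5 times. Trichostatin A C5 had 44 feature calls by DESeq2, 186 with 1 member without the filter, 1 with probes summed, and 104 with 4 members without its C1 library of batch 3, and 0 to 284 with 0 to 4 members as single replicates were left out. Leaving out single replicates gave 2281 to 3230 feature calls at C5 of apicidin (3662 with all), 1772 to 3024 of mocetinostat (3983), 932 to 2009 of panobinostat (2127), 1516 to 4638 of scriptaid (3811) and 457 to 1166 of valproic acid (1435). The same gave 0 to 2 member calls at C4 of panobinostat, 0 to 5 at C3 and 1 to 5 at C4 of scriptaid, and 2 to 6 at C3 of valproic acid. Among the chemicals of plate E 1 member differed in place of 7. The cause of these shifts was not tested. Library totals fell to 48.9% of C1 in vorinostat at C5, and ADH4 there, ADH1C and ALDH1L1 are limited by depth.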
